A study of Mus musculus with 2 samples.

Results

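Resting general capillary endothelial cells are the larger of the 2 capillary cell populations that line the air sacs of the lung. In these data they were 819 of 4687 cell barcodes, 79 in the library labelled Cherry_positive and 740 in the library labelled Cherry_negative. Both libraries held CD45- cells (cells without the pan-leukocyte surface protein) sorted from mouse lung 7 days after an intravenous dose of 4T1, an established mammary carcinoma line of the mouse. The labelling variant of that line releases an mCherry protein that neighbouring cells take up, so that Cherry_positive cells are those that carried the label and Cherry_negative cells those that did not. The labels give no strain, age or number of animals and leave unsaid whether the animals received radiation, which the series title is about. There was 1 library per group, so no value below has a replicate check, and no difference was tested against the spread between animals.

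General capillary cells form most of the capillary network and are known for renewing the alveolar endothelium after injury. They carry the apelin receptor Aplnr, the stem cell factor receptor Kit, and Gpihbp1, which holds lipoprotein lipase on the capillary wall. The second capillary type, marked by carbonic anhydrase 4 (Car4) and by the ligand apelin, is a large, thin cell that lies against the type 1 epithelium where gas is exchanged. Endothelial cells respond to interferons by making guanylate-binding proteins, immunity-related GTPases, the chemokines Cxcl9 and Cxcl10 and the antigen presentation machinery, and the cells described here are the general capillary cells in which that programme was low.

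The members were chosen on their unique molecular identifier (UMI) counts, each UMI standing for 1 captured RNA molecule. A barcode had to hold at least 500 genes and at most 10% mitochondrial UMIs, which 1770 Cherry_positive and 2811 Cherry_negative barcodes did. It then had to hold at least 4 UMIs of Pecam1, Cdh5, Cldn5, Egfl7 and Ramp2 together, and more of these than of the fibroblast genes Col1a1, Col1a2, Col3a1 and Dcn, which left 258 and 1545 endothelial cells. The summed UMIs of Aplnr, Plvap, Kit and Pcdh17 had to be larger than the like sums of Car4 capillary, arterial, venous and lymphatic genes, as in 100 and 786 cells, and at least 2, as in 99 and 783. Last, Gbp2, Gbp4, Iigp1, Igtp, Cxcl9 and Cxcl10 together had to stay under 0.5% of the UMIs of the cell. The genes named in this rule chose the cells, so their levels below are descriptions and support nothing.

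The regulatory sequence that goes with the last step of the rule was read from the RefSeq promoter table of GRCm38.p6, from 250 bases before to 50 bases after the start of each gene. The first 4 genes below code for interferon-induced GTPases, of which Gbp2 and Igtp were used by the rule and Gbp2b and Tgtp2 were not. The prostaglandin-degrading enzyme Hpgd and the sodium channel family member Scn7a are shown as genes whose level was higher in the resting cells than in the activated ones. Capitals mark each match to the letters of the interferon-stimulated response element, which are GAAA, any 2 bases and GAAA, or TTTC, any 2 bases and TTTC on the other strand. The windows are Gbp2 at chr3:142620413-142620712 on the plus strand, Gbp2b at chr3:142594597-142594896 on the plus strand, Igtp at chr11:58199306-58199605 on the plus strand and Tgtp2 at chr11:49064163-49064462 on the minus strand. Hpgd is at chr8:56294302-56294601 on the plus strand and Scn7a at chr2:66784861-66785160 on the minus strand. Each sequence reads 5′ to 3′ on the strand of its gene.
Gbp2: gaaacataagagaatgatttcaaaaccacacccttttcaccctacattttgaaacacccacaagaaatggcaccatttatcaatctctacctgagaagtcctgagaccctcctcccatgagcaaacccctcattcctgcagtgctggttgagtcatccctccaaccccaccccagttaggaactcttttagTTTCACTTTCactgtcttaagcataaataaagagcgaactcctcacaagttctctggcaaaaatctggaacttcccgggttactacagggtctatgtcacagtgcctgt
Gbp2b: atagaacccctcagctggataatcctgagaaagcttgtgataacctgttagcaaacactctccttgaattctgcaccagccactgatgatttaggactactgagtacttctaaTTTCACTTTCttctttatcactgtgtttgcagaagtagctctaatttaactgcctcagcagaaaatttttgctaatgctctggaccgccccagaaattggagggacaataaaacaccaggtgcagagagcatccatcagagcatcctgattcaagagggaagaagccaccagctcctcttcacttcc
Igtp: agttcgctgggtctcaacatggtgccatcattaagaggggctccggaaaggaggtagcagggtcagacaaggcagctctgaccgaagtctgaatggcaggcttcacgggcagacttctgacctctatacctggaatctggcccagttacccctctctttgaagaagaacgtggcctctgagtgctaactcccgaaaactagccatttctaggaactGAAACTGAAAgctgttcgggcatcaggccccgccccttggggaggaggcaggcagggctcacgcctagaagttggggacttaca
Tgtp2: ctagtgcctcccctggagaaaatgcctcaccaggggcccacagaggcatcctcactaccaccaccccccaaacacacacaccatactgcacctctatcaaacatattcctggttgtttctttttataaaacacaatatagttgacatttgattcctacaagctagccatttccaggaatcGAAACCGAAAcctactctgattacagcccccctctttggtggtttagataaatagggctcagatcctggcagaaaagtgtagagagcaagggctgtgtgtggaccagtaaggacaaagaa
Hpgd: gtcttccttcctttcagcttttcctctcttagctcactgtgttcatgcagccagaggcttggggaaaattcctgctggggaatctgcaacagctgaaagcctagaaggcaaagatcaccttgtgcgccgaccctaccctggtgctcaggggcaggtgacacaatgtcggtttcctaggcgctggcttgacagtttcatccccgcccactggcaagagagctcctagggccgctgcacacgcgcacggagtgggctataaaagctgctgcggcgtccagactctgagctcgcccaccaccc
Scn7a: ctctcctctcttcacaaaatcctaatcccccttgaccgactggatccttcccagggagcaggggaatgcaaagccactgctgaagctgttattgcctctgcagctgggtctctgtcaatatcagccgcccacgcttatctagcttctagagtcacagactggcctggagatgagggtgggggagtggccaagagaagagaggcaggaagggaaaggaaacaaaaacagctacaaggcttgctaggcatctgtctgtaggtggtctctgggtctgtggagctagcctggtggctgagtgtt
The match began 59 bases before the start in Gbp2, 137 bases before it in Gbp2b, 34 bases before it in Igtp and 70 bases before it in Tgtp2. The windows of Hpgd and Scn7a held no match.

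The 2 libraries were of similar size, with 10094853 UMIs (median of 4324 per barcode) in Cherry_positive and 11632459 (median of 2971) in Cherry_negative. They differed in what they held: 1302 of the kept Cherry_positive cells and 761 of the kept Cherry_negative cells were mesenchymal by their markers, and 37 and 464 were epithelial. Of the barcode sequences, 13 occurred in both libraries. The members held 317361 and 2322604 UMIs. The median member held 3008 UMIs and 1485 genes in Cherry_positive, and 2388.5 UMIs and 1288.5 genes in Cherry_negative, with 2.35% and 2.42% mitochondrial UMIs. Of the members, 4 and 32 also held epithelial, stromal or red cell markers above set shares of their UMIs, among them 1 and 16 with type 2 epithelial markers. All 10 type 2 markers were detected in both libraries, at 9295 and 23402 summed CPM, and 9 of 10 pericyte and smooth muscle markers, at 315 and 57.7 CPM. Of 12 leukocyte markers, which include Lyz2 of type 2 cells, 6 and 10 were detected, at 624 and 2130.4 CPM, and 5 and 4 of 5 red cell markers at 9204 and 18.1 CPM, mostly from 1 Cherry_positive barcode with 51.5% of its UMIs in them. These barcodes, called mixed below, were kept because the rule has no step against them. Levels below are in CPM, the UMIs of a gene summed over the members of a library, times 1000000 and divided by all UMIs of those members. Every interval is an exact 95% interval and covers counting error only.

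The general capillary markers stood where the label places them, and a marker that the rule did not use stood with them. Gpihbp1 had 1588 CPM (1452 to 1733) in Cherry_positive members and 1839 CPM (1785 to 1895) in Cherry_negative members, and was detected in 78.5% and 87.0% of them. Car4 capillary cells of the same libraries had 194 and 365 CPM of Gpihbp1. It did not set the members apart from arterial cells, which had 1017 and 1552 CPM, and activated general capillary cells had 341 CPM in Cherry_positive and 1502 CPM in Cherry_negative. After each cell had been thinned to 2000 UMIs, leaving 74 and 494 members, the share of members with a Gpihbp1 UMI was 71.6% and 83.0%. It was 0.858% and 3.62% in mesenchymal cells, which should lack it and which were deeper before thinning, with medians of 4518.5 and 3049 UMIs. Gpihbp1 lies at chr15:75596628-75599481 on the plus strand (positions of genes are those of GENCODE release M21 on GRCm38, the mm10 build).

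Among the 4 genes of the general capillary sum, Plvap, which builds the diaphragms of caveolae and fenestrae, was found in 98.7% and 98.5% of members. Its level was 2461 CPM (2291 to 2639.7) in Cherry_positive and 2898 CPM (2829.6 to 2969) in Cherry_negative members, with 198 and 224 CPM in Car4 capillary cells. Plvap was not particular to the resting capillary, since arterial cells had 1744 and 1390.3 CPM and activated general capillary cells 2472 and 3459 CPM. Aplnr had 211 CPM (164 to 268) and 244 CPM (224 to 265), with 9.41 and 26.2 CPM in Car4 capillary cells and 32.3 and 44.1 CPM in arterial cells. Kit had 158 and 150.3 CPM, and the cell adhesion protein Pcdh17 had 369 and 387 CPM. Aplnr, Kit and Pcdh17 were each seen in a part of the members only: Aplnr in 45.6% and 40.1%, Kit in 32.9% and 34.3%, and Pcdh17 in 55.7% and 54.3%. In Cherry_negative, 169 members held 1 of the 4 genes, 283 held 2, 205 held 3 and 83 held all 4. The counts in Cherry_positive were 17, 28, 25 and 9. Aplnr lies at chr2:85136225-85139923 (plus strand), Plvap at chr8:71497765-71511752 (minus), Kit at chr5:75574916-75656722 (plus) and Pcdh17 at chr14:84443563-84539002 (plus).

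The genes that mark Car4 capillary and arterial cells were present at lower levels than in those classes. Venous and lymphatic genes are given here for the members only. Car4 had 375 and 353 CPM in the members against 3032 and 3066 CPM in Car4 capillary cells. Ednrb, the endothelin receptor of that cell type, had 12.6 and 8.61 CPM against 260.2 and 291 CPM. The gap junction gene Gja4 had 142 and 215 CPM in the members and 1130.3 and 1035 CPM in arterial cells. Vwf, the von Willebrand factor of larger vessels, had 6.30 and 46.5 CPM, but the 5 venous genes of the rule together had 551 and 577 CPM. The lymphatic master regulator Prox1 was at 0 in Cherry_positive and at 0.861 CPM in Cherry_negative members, and Reln was at 0 in both. All 4 lymphatic genes of the rule together had 59.9 and 50.8 CPM. Lyve1, listed as a lymphatic marker outside the rule, had 690 and 745 CPM. The leukocyte gene Ptprc was at 0 in Cherry_positive members and at 0.431 CPM, from 1 cell, in Cherry_negative members. All 10 endothelial genes listed outside the rule were detected in both libraries.

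**Figure D1:**
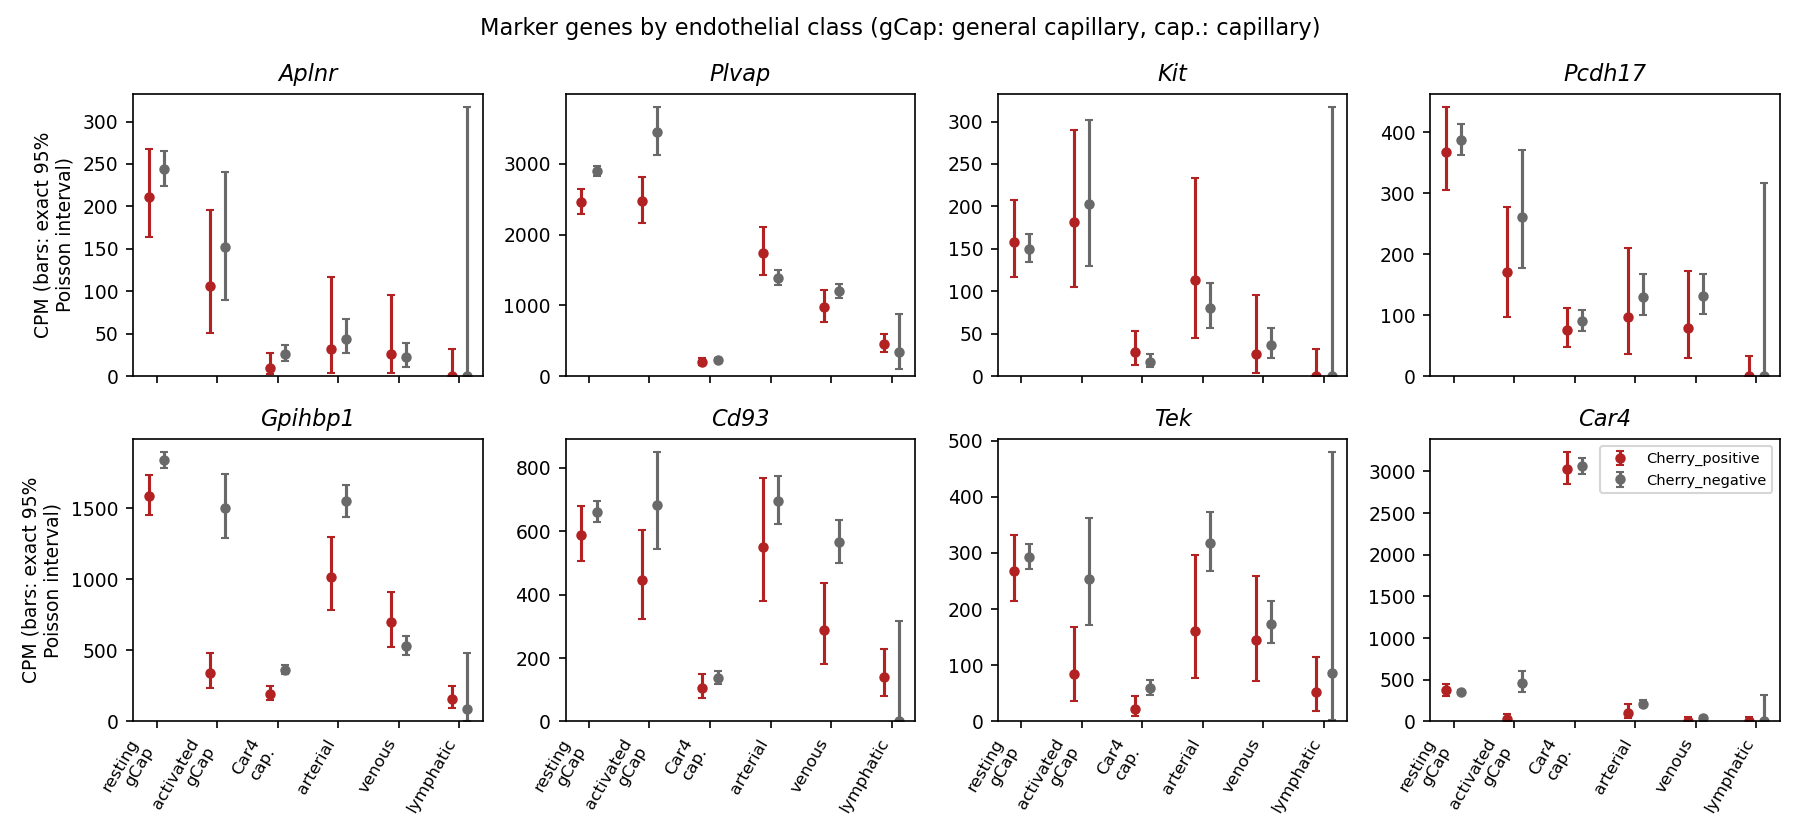
Levels (CPM, linear axes from 0) of 8 marker genes in the 6 endothelial classes of the Cherry_positive and Cherry_negative libraries, with exact 95% Poisson intervals as bars. Gpihbp1, which the rule did not use, stood at 1588 and 1839 CPM in the resting cells and at 194 and 365 CPM in Car4 capillary cells, and intervals are wide in the lymphatic class, which held 19 and 4 cells.

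Around the thresholds of the rule the members ran on without a gap. The general capillary sum had a median of 10 in both libraries and reached 80 and 93, and 3 and 14 members stood at exactly 2. Endothelial cells in which this sum was largest but only 1 numbered 1 and 3, and 8 and 65 had a tie for the largest sum. The 6 interferon genes made up a median of 0.0613% and 0.0470% of a member's UMIs, and 22 and 258 members held none of them. The member nearest the limit had 0.483% in Cherry_positive and 0.499% in Cherry_negative, and the nearest cell beyond it 0.527% and 0.511%.

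Resting general capillary cells made up a smaller share of the Cherry_positive library than of the Cherry_negative library. They were 79 of 1770 kept cells, or 4.46% (3.55 to 5.53), in Cherry_positive and 740 of 2811, or 26.3% (24.7 to 28.0), in Cherry_negative. Part of that gap is the smaller endothelial share of the Cherry_positive library. Within endothelial cells the members were 30.6% (25.1 to 36.6) against 47.9% (45.4 to 50.4). Car4 capillary cells were 34.5% (28.7 to 40.6) of the endothelial cells in Cherry_positive and 22.7% (20.6 to 24.8) in Cherry_negative, so the order of the 2 capillary types differed between the libraries. Among general capillary cells, those over the interferon limit numbered 20 and 43, a share of 20.2% (12.8 to 29.5) in Cherry_positive and 5.49% (4.003 to 7.33) in Cherry_negative. The sort sets how many cells of each kind enter a library, and with 1 library per group the label, the animals and the sort cannot be told apart. Activated cells had medians of 4120 and 2410 UMIs against 3008 and 2388.5 in the resting cells.

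**Figure D2:**
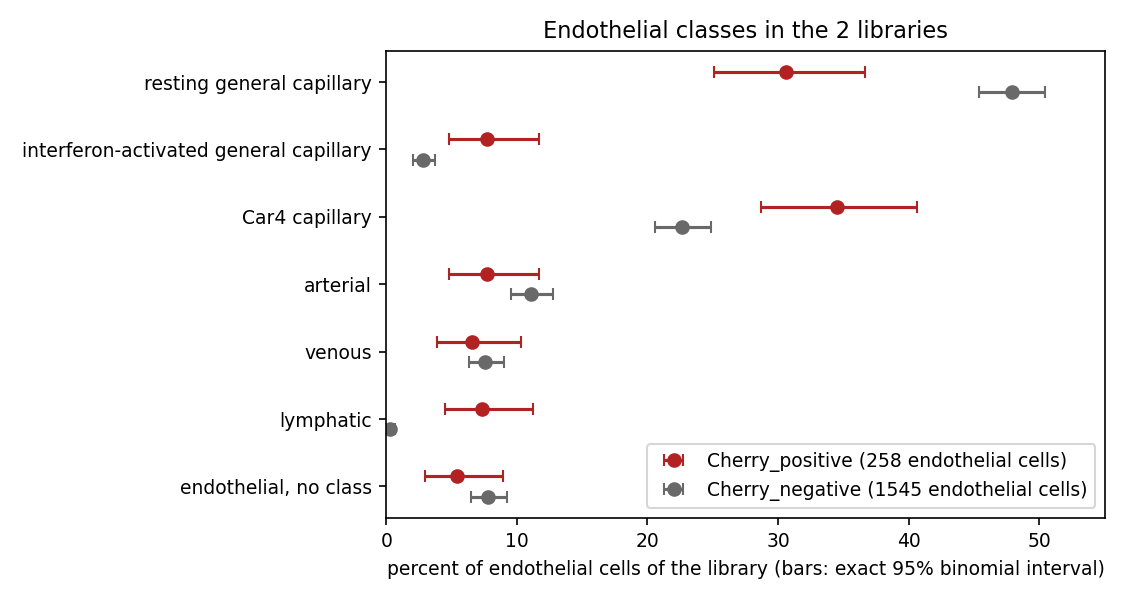
Share of endothelial cells (percent) in each class of the rule, in the Cherry_positive (258 cells) and Cherry_negative (1545 cells) libraries, with exact 95% binomial intervals as bars. Resting general capillary cells were the largest class in Cherry_negative at 47.9%, and stood at 30.6% beside 34.5% Car4 capillary cells in Cherry_positive.

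Genes of mitochondria, ribosomes and haemoglobin were left out of the ranking by abundance, though some were as abundant as those named here. Apart from these and surfactant RNA, the most abundant RNAs outside the rule were shared by the members of both libraries. The nuclear long noncoding RNA Malat1 led with 33567 CPM in Cherry_positive and 38464 CPM in Cherry_negative members. Tmsb4x, which codes for the actin-binding thymosin beta 4, had 6797 and 6545 CPM. The class I antigen gene H2-D1 had 6500.5 and 6647 CPM, its partner B2m 6075 and 5497 CPM, and the interferon-induced membrane protein Ifitm3 6507 and 5248 CPM. Others near the top were Ly6e (3728 and 4140.2 CPM), the elongation factor Eef1a1 (3973 and 3537 CPM), the membrane protein Itm2b (3343 and 4107 CPM) and thymosin beta 10, Tmsb10 (3999 and 3444 CPM). The surfactant protein C gene Sftpc, made by type 2 epithelial cells, was listed at 7572 and 16800 CPM. Without the mixed barcodes it was at 132 and 1622 CPM. A Sftpc UMI was found in 18.9% and 95.7% of thinned members and in 24.6% and 95.8% of thinned mesenchymal cells of the same libraries. Most Sftpc UMIs of the members were thus in the mixed barcodes, and the share of cells with any was no higher in the members than in mesenchymal cells. The part of free RNA was not tested.

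The resting cells differed from the activated general capillary cells mainly by the programme that the rule cut on. Of 2205 genes with at least 30 UMIs in both classes together in each library, 28 (1.27%) were at least 2-fold higher in the resting cells in both libraries, with both intervals off 1, and 86 (3.9%) were at least 2-fold lower. The rule set this contrast, so the counts describe the 2 classes and support nothing. Outside the genes of the rule, 12 of 13 measured genes of the interferon gamma list were called lower in the resting cells (median log2 ratio of -2.27 in Cherry_positive and -2.76 in Cherry_negative), and so were 7 of 9 of the type I interferon list. The median over all 2205 genes was 0.09 and 0.05.

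Among the genes lower in resting cells, Gbp2b, a guanylate-binding protein gene next to Gbp2 on chromosome 3 (chr3:142594847-142619179, plus strand), had 101 CPM in resting and 2280.3 CPM in activated cells of Cherry_positive, and 80.5 and 1316 CPM in Cherry_negative. Cd274, which codes for the checkpoint ligand PD-L1, had 12.6 CPM against 384 CPM, and 8.18 against 295 CPM. The interferon-regulated transcription factor gene Irf8 had 15.8 against 373 CPM, and 8.18 against 169 CPM. All 3 were at least 10 times lower in the resting cells of both libraries. AA467197 had 47.3 against 1641 CPM and 3.01 against 329 CPM. Wars, the tryptophanyl-tRNA synthetase gene, had 110.3 against 1034 CPM and 112 against 1164 CPM, and the serine protease inhibitor gene Serpina3g 349.8 against 3005 CPM and 369.8 against 2624 CPM. Batf2, a transcription factor gene, had 34.7 against 394 CPM and 19.8 against 489 CPM. The last of the 8 genes named, Timp3, codes for an inhibitor of metalloproteinases and had 217 against 1609 CPM and 139 against 1206 CPM.

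Antigen presentation followed the same split. All 5 measured class II genes were called lower in the resting cells, with Cd74, the invariant chain that carries class II molecules, at 1276 against 7853 CPM in Cherry_positive and 864 against 4421 CPM in Cherry_negative. Of the class I and immunoproteasome list, 11 of 18 were called lower, among them the peptide transporter gene Tap1 (91.4 against 565 CPM, and 84.0 against 709 CPM). The leukocyte adhesion receptor gene Vcam1 had 72.5 against 469 CPM, and 99.5 against 405 CPM. Ly6a, the stem cell antigen 1 gene, had 3498 against 13969 CPM, and 3062 against 13507 CPM, so that it was among the abundant genes of both states.

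Of the 28 genes higher in the resting cells, 19 stayed at least 2-fold higher in both libraries without mixed barcodes. Hpgd had 889 CPM in resting and 107 CPM in activated cells of Cherry_positive, and 1133 and 481 CPM in Cherry_negative. Scn7a had 258 against 21.3 CPM, and 258 against 75.9 CPM. The caveolar coat gene Sdpr (cavin 2) had 630.2 against 74.6 CPM, and 793 against 397 CPM. In all 3 the ratio was larger in Cherry_positive, where the activated class was 20 cells. The tubulin-binding protein gene Tppp3 had 139 against 0 CPM, and 172 against 25.3 CPM, and the transcription regulator gene Tsc22d1 280.4 against 53.3 CPM, and 304 against 84.4 CPM. Gstm1 (glutathione transferase) and Ctsd (lysosomal cathepsin D) were the other 2 named besides Fabp5, a fatty acid binding protein gene with 183 against 32.0 CPM, and 181 against 67.5 CPM. Without mixed barcodes the ratio of Fabp5 in Cherry_negative was 1.37, short of the call. The endothelial transcription factor gene Sox17 had 195 against 74.6 CPM, and 188 against 75.9 CPM. Of the general capillary list outside the rule, 0 of 8 genes were called, with median log2 ratios of 1.57 and 0.49.

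**Figure D3:**
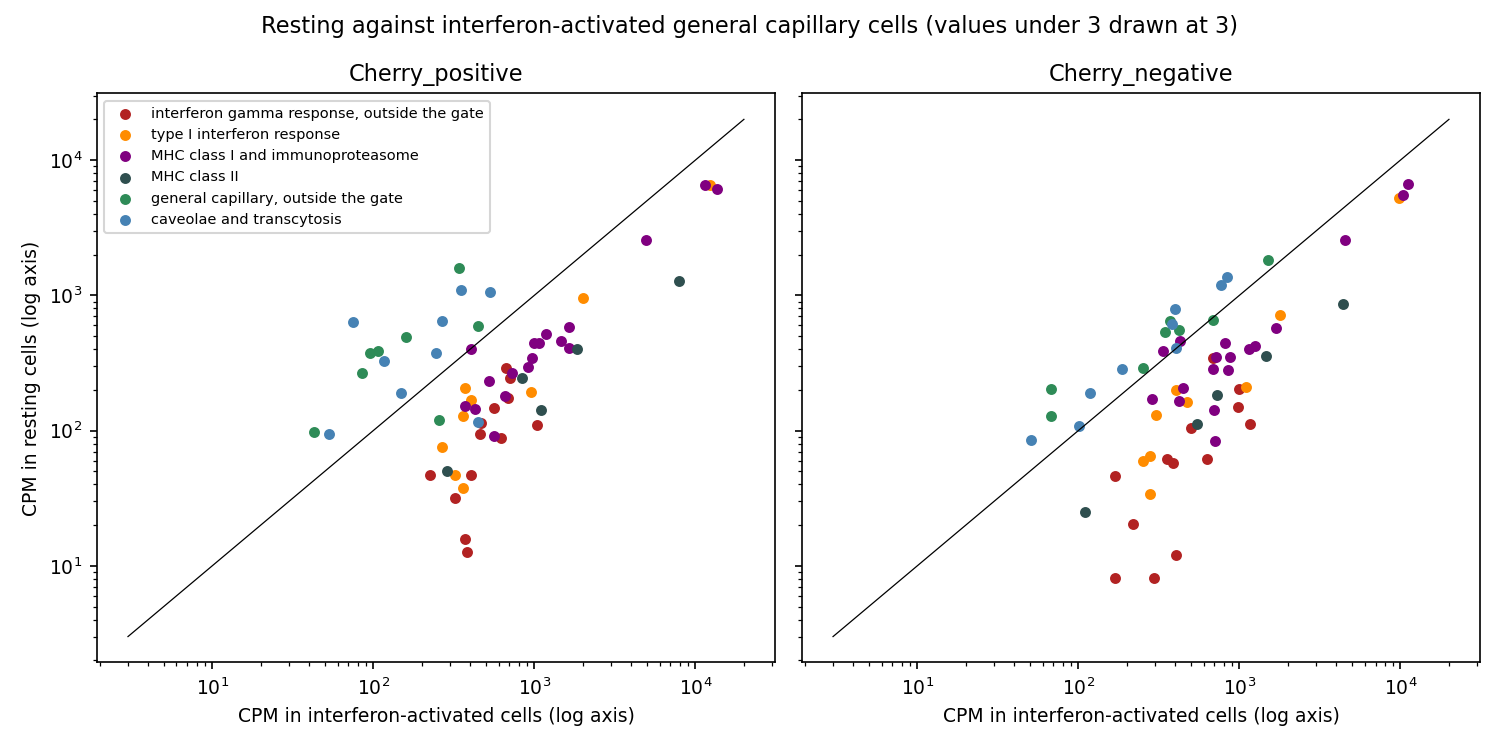
Level of each measured gene of 6 lists in interferon-activated (x axis) and resting (y axis) general capillary cells, in CPM on log axes, with 1 panel per library, the diagonal as equal levels, colour for the list and gate in the legend for the rule. Interferon and antigen presentation genes lay below the diagonal in both libraries, such as Cd74 at 1276 against 7853 CPM in Cherry_positive, and most caveolae and general capillary genes lay above it.

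The response element shown above was counted over whole promoter sets. It occurred in the promoters of 14 of the 62 genes (22.6%) that were lower in resting than in activated cells and had a promoter in the table, and in 0 of 19 genes that were higher. Among all measured genes it occurred in 231 of 5823 (3.97%), and among all genes of the table in 1079 of 27025 (3.99%). Of 32851 promoter windows of this length, 3.44% held it. The gamma-activated site, searched as TTC, any 3 bases and GAA, which reads alike on both strands, occurred in 13 of the same 62 genes (20.97%) against 8.16% of measured genes. Igtp and Tgtp2 held 1 such site each, outside the response element. A match is a run of letters and not a shown binding site.

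Against Car4 capillary cells, of 3292 measured genes, 81 (2.46%) were called higher in the members of both libraries and 110 (3.34%) lower, again a contrast that the rule set. Of the general capillary list, 6 of 8 were called higher, with median log2 ratios of 2.47 and 1.95: Gpihbp1, the C-type lectin receptor gene Cd93, the endothelial phosphatase gene Ptprb, Cxcl12, Adgrl3 and Tek. Cd93 had 589 CPM in the members and 107 CPM in Car4 capillary cells of Cherry_positive, and 662 and 137 CPM in Cherry_negative. Tek, the angiopoietin receptor gene Tie2, had 268 against 21.9 CPM, and 292 against 59.4 CPM. Of the Car4 capillary list outside the rule, 11 of 12 were called lower.

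Genes of VEGF and stem cell factor signalling were split between the 2 capillary types. Kdr, the main VEGF receptor gene, was lower in the members (328 against 984 CPM, and 356 against 793 CPM), and Vegfa was higher (85.1 against 21.9 CPM, and 104 against 29.3 CPM). Kitl, the ligand of Kit, was lower in the members at 164 against 470.3 CPM, and 106 against 366 CPM, while Kit was part of the rule. Npr3, the natriuretic peptide clearance receptor gene, had 139 against 25.1 CPM, and 149.8 against 16.2 CPM. The cytokine gene Il1a had 6.30 against 248 CPM, and 6.03 against 167 CPM. The tetraspan membrane protein genes Emp2 (195 against 2054 CPM, and 117 against 1594 CPM) and Pmp22 (205 against 1752 CPM, and 241 against 1664 CPM) were lower too, as was the transcript AW112010 (59.9 against 1395 CPM, and 79.7 against 1114 CPM).

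Beside Gpihbp1, the other genes named as higher than in Car4 capillary cells were led by Rgcc, a regulator of the cell cycle, with 101 against 3.14 CPM, and 165 against 17.0 CPM. Gpr182, an endothelial receptor that scavenges chemokines, had 246 against 12.5 CPM, and 192 against 32.4 CPM. Tmem252 had 539 against 69.0 CPM, and 666 against 109 CPM. The cell surface hyaluronidase gene Tmem2 had 236 against 21.9 CPM, and 214 against 29.3 CPM, and Grrp1 139 against 9.41 CPM, and 96.4 against 10.02 CPM. Fam101b had 107 against 0 CPM, and 65.0 against 7.71 CPM. Cd74 was also higher in the members (1276 against 28.2 CPM, and 864 against 382 CPM), as was Ifitm3 (6507 against 2928 CPM, and 5248 against 2077 CPM), although the members had been cut to a low interferon score and the Car4 capillary cells had not.

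Fewer genes separated the members from arterial cells, of which there were 20 and 171. Of 2098 measured genes, 10 (0.477%) were called higher in both libraries and 16 (0.763%) lower. Without mixed barcodes 3 of the 10 and 13 of the 16 stayed at least 2-fold different in both libraries, and 6 of the 10 were Sftpc, Sftpa1, Sftpb, Lyz2, Cxcl15 and Cbr2, genes of type 2 and airway epithelial cells. The lipid phosphatase gene Plpp1 had 715 CPM in the members and 96.9 CPM in arterial cells of Cherry_positive, and 812 and 391 CPM in Cherry_negative. Gmfg had 123 against 0 CPM, and 139 against 56.7 CPM, and the secreted glycoprotein gene Lrg1 296 against 96.9 CPM, and 129.6 against 31.5 CPM. Of the 94 Cherry_positive Lrg1 UMIs, 48 were in 1 member, described below, without which the level was 147 CPM and under 2-fold of the arterial one. Lower in the members were Cxcl12, the ligand of Cxcr4 (119.7 against 791 CPM, and 202 against 999.6 CPM), the monoacylglycerol lipase gene Mgll (69.3 against 404 CPM, and 67.2 against 246 CPM), the microtubule regulator gene Stmn2 (221 against 694 CPM, and 399 against 1052 CPM) and Vcam1 (72.5 against 355 CPM, and 99.5 against 252 CPM). Mgp, an inhibitor of calcification, was lower in both libraries as well, at 548 against 1308 CPM and 186 against 1258 CPM.

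Cherry_positive and Cherry_negative members were alike in most genes. Of 7529 genes with at least 30 UMIs in both libraries together, 6841 (90.9%) lay within 2-fold, and the median log2 ratio of Cherry_positive over Cherry_negative was -0.02. With a call meaning at least 2-fold and an interval off 1, 107 genes (1.42%) were called higher in Cherry_positive members and 151 (2.01%) lower. Of 1641 genes at a mean of 100 CPM or more, 13 were called higher and 19 lower. Many of the higher calls rest on few cells: 44 of the 107 stayed called when the cell with the most UMIs of the gene was left out in each library, and 138 of the 151 lower calls did. Without mixed barcodes 76 and 93 stayed called. In bulk sums such as these, fewer cells with a gene and less RNA per cell cannot be told apart.

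**Figure D4:**
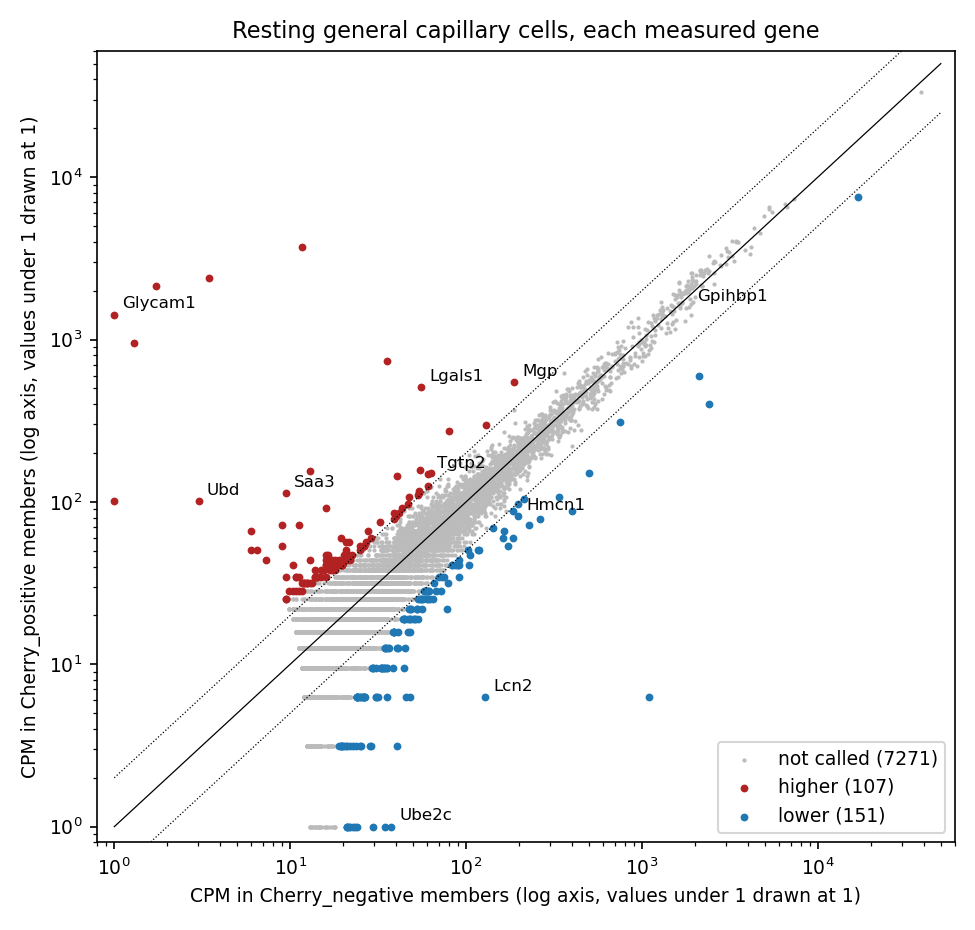
Levels of each measured gene in Cherry_negative (x axis) and Cherry_positive (y axis) resting general capillary cells, in CPM on log axes, with genes called higher and lower in colour a solid line at equal levels and dotted lines at 2-fold. Most points lie between the lines, and 107 and 151 genes are called outside them.

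A single Cherry_positive member accounted for many of the largest ratios. It held all 451 UMIs of Glycam1, a mucin-like ligand of L-selectin, which had 0 UMIs in the 740 Cherry_negative members. The same cell held 141 of 234 UMIs of the chemokine gene Ccl21a, 30 of 32 of the ubiquitin-like gene Ubd, 48 of 94 of Lrg1, 23 of 46 of the secreted chaperone gene Clu and 7 of 14 of Pglyrp1. It also held all 4 UMIs of Fut7 and both UMIs of Chst4 in the Cherry_positive members, enzymes that build L-selectin ligands. These 2 genes were chosen after their values had been seen. Madcam1, looked up with them, had 0 UMIs in the Cherry_positive members, and the cell held 0 of their 23 Vcam1 UMIs. Glycam1, Fut7 and Chst4 are known as genes of the high endothelial venules through which lymphocytes leave the blood. The cell had 4802 UMIs and met the rule with 5 UMIs of Plvap and 1 of Pcdh17, with none of Aplnr, Kit or Gpihbp1.

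Without that cell, 101 and 147 genes were called, the ratio of Ubd went from 33.5 (14.5 to 89.8) to 2.12, that of Clu from 3.58 (2.46 to 5.15) to 1.82, and that of Ccl21a from 20.9 (16.2 to 27.2) to 8.43. Ccl21a is uncertain in any case, since near-identical copies share its reads, and in Cherry_negative 1 cell held 89.0% of its UMIs. Spp1, the osteopontin gene, was another case of 1 cell, with 30 of 32 UMIs in a different member and levels of 101 and 0.861 CPM. For the contractile genes Tagln (154 and 12.9 CPM), Des, Tpm2 and Myl9, the Cherry_positive member with the most UMIs was a mixed barcode. Without mixed barcodes the ratio went from 11.95 to 1.73 for Tagln, from 10.98 to 1.80 for Des, from 7.81 to 0.600 for Tpm2 and from 5.92 to 0.450 for Myl9. Tagln is itself among the stromal markers that define mixed barcodes, so its fall follows in part by construction. Des, Tpm2 and Myl9 are not among those markers.

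Genes that were spread over many Cherry_positive members made up a second set, and these were abundant in the stromal cells of the same library. Lgals1, which codes for the glycan-binding galectin 1 (chr15:78926725-78930465, plus strand), had 510.5 CPM in Cherry_positive and 55.5 CPM in Cherry_negative members, a ratio of 9.19 (7.25 to 11.7). It was seen in 42 of 79 and 73 of 740 members, and 1 cell held 43.2% of the Cherry_positive UMIs. Leaving that cell out gave a ratio of 5.92, and leaving out mixed barcodes one of 11.8. After thinning, 39.2% (28.0 to 51.2) and 8.30% (6.02 to 11.1) of members held a Lgals1 UMI, against 94.6% and 85.2% of mesenchymal cells. Taking 5% of the UMIs as free RNA with the makeup of the whole library, and subtracting it, gave 14.95. Over the whole libraries Lgals1 stood at 5542.5 and 799 CPM. Only the share of 5% was tried, and the part of free RNA was not tested. The calcium-binding protein gene S100a6 had 274 and 79.7 CPM, a ratio of 3.44 (2.64 to 4.46). The ratio was 1.66 without the cell that held 57.5% of its UMIs, 4.65 without mixed barcodes and 2.88 after the subtraction. Over the whole libraries S100a6 stood at 3331 and 846 CPM.

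Mgp (chr6:136872435-136875823, minus strand) had 548 CPM (469.8 to 636) in Cherry_positive and 186 CPM (169 to 205) in Cherry_negative members, a ratio of 2.94 (2.45 to 3.51), and was seen in 61 of 79 and 119 of 740 members. After thinning the shares were 62.2% (50.1 to 73.2) and 12.8% (9.94 to 16.0). Car4 capillary cells showed nearly the same pair of shares, 54.7% and 15.1%. In mesenchymal cells Mgp stood at 15207 and 7449 CPM, and over the whole libraries at 10805 and 1896 CPM. With 5% free RNA subtracted the ratio was 0.09, on the other side of 1. Whether the Mgp UMIs came from the members was not tested.

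The acute phase gene Saa3 (chr7:46711998-46715700, minus strand) showed the same pattern. It had 113 CPM (79.4 to 157) in Cherry_positive and 9.47 CPM (5.94 to 14.3) in Cherry_negative members, a ratio of 11.98 (6.86 to 21.4), and was seen in 28 and 22 members. The thinned shares were 21.6% and 1.42% in members, 22.1% and 3.47% in Car4 capillary cells and 47.4% and 4.25% in mesenchymal cells, whose levels were 5297 and 730 CPM. Subtracting 5% free RNA left no Saa3 UMI in the members of either library, and the part of free RNA was not tested. Mt1 and Mt2, which code for metal-binding metallothioneins, had 158 and 54.7 CPM, and 91.4 and 15.9 CPM. Their ratios of 2.88 (2.03 to 4.03) and 5.74 (3.40 to 9.58) became 1.25 and at most 1.67 after the subtraction. They were the 2 genes called of 11 measured in the oxidative stress and metal binding list.

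Sox18, unlike Lgals1 and Mgp, was rare in the mesenchymal cells of both libraries. This endothelial transcription factor gene (chr2:181669836-181671640, minus strand) had 369 CPM (305 to 442) in Cherry_positive and 187 CPM (169.7 to 205) in Cherry_negative members, a ratio of 1.97 (1.59 to 2.43), just short of the call. A Sox18 UMI was found in 67.1% and 39.6% of members, and in 54.1% (42.1 to 65.7) and 31.6% (27.5 to 35.9) after thinning. Mesenchymal cells, which should lack it, gave 0.234% and 0.629%. The ratio was 1.93 without the top cell of each library and 1.997 without mixed barcodes. Car4 capillary cells had 392 and 151 CPM of Sox18, a ratio of 2.59, so the higher level was in both capillary types of the Cherry_positive library. The list of 20 measured endothelial transcription factors had 12 higher, 8 lower, none called and a median log2 ratio of 0.11.

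Genes of the general capillary list were lower in Cherry_positive members, and in Car4 capillary cells too. All 9 measured genes of the list outside the rule had a ratio below 1, none was called, and the median log2 ratio was -0.41 (-0.45 without mixed barcodes). Summed, they had 3948 and 4924 CPM, a ratio of 0.802 (0.756 to 0.850). In Car4 capillary cells the median of this list was -0.90, with 0 of 9 genes over 1 and 3 called lower. Ptprb, the phosphatase that restrains Tie2, had 375 and 553 CPM, a ratio of 0.678 (0.557 to 0.819), and Hilpda, a lipid droplet protein gene, had 384 and 533 CPM. Gpihbp1 had a ratio of 0.863 (0.786 to 0.947), and Tek one of 0.916 (0.722 to 1.15), an interval that includes 1. Outside that list, Smad6, an inhibitor of BMP signalling (chr9:63953076-64022059, minus strand), had 277 and 449.5 CPM, a ratio of 0.617 (0.490 to 0.767). The transcription factor gene Foxf1 had 684 and 868 CPM and the VEGF co-receptor gene Nrp1 463 and 609 CPM. These 3 genes do not stand for whole lists. Of 16 measured BMP and TGF-beta genes 8 were higher and 8 lower, with 1 called higher, 0 called lower and a median log2 ratio of -0.04. Of 10 VEGF, angiopoietin and Tie genes 3 were higher and 7 lower, with 1 called higher, 0 called lower and a median of -0.12. Of thinned mesenchymal cells, 0.858% and 3.62% held a Gpihbp1 UMI, 0.780% and 2.36% a Cd93 UMI, and 0.702% and 0.943% a Tek UMI. Mesenchymal cells should lack these genes of the general capillary list, and the part of free RNA in the lower ratios was not tested.

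Among the genes called lower, Hmcn1, which codes for the extracellular matrix protein hemicentin (chr1:150562524-150993435, minus strand), had 81.9 CPM (53.5 to 120.0) in Cherry_positive and 198 CPM (180.4 to 217) in Cherry_negative members, a ratio of 0.414 (0.267 to 0.614). It was seen in 19 of 79 and 281 of 740 members, and after thinning in 18.9% and 31.2%, against 16.4% and 21.7% of mesenchymal cells. Adrb1, the beta 1 adrenergic receptor gene (chr19:56722199-56733113, plus strand), had 66.2 and 165 CPM, a ratio of 0.401 (0.246 to 0.622). Its thinned shares were 13.5% and 27.9% in members and 0.156% and 0.472% in mesenchymal cells. The junctional adhesion molecule gene Jam2 had 34.7 and 74.5 CPM, a ratio of 0.465 (0.228 to 0.854), from 10 and 150 members.

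Other named genes were rarer. Med17, a subunit of the Mediator complex, had 0 UMIs in Cherry_positive and 21.96 CPM in Cherry_negative members, where 47 cells held it. Against the floor of 3 counts in Cherry_positive its ratio was at most 0.430, and after thinning 0 of 74 members held it, which allows a share of up to 4.86%, against 4.66%. Rbm33 and Kif13a were likewise at 0 against 21.1 CPM each, from 45 and 46 cells, and neither was called without mixed barcodes. The cyclin G2 gene Ccng2 had 9.45 and 44.3 CPM, a ratio of 0.213 (0.0432 to 0.641), and the mitochondrial GTPase gene Mtg2 3.15 and 28.8 CPM, from 1 and 63 cells. The noncoding gene Gm26870 had 72.5 and 227 CPM, a ratio of 0.319 (0.2003 to 0.484), and Gm12840 22.1 and 77.5 CPM.

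Cycling cells were few in both libraries. Ube2c, Cdc20, Cenpa and the histone gene Hist1h2ap were at 0 in Cherry_positive and at 37.5, 21.5, 21.1 and 23.2 CPM in Cherry_negative members. In Cherry_negative 1 cell held 56.3% of the Ube2c UMIs, 54.0% of those of Cdc20 and 48.1% of those of Hist1h2ap. Without the top cell of each library none of these 3 was called. All 7 measured G2/M genes were lower in Cherry_positive and 3 were called, Cenpa among them. The median log2 ratio was -3.43, or -0.83 with genes at 0 set to the floor. At least 2 UMIs of the G2/M list were found in 1 of 79 members, 1.27% (0.0320 to 6.85), and in 18 of 740, 2.43% (1.45 to 3.82), shares whose intervals overlap. After thinning these were 0 of 74 and 9 of 494. Of the 462 G2/M UMIs in Cherry_negative, 422 were in those 18 cells and 232 in 1 of them. For the G1/S list, 9 of 10 measured genes had a ratio over 1 and 1 was called, the replication licensing gene Mcm6 at 34.7 and 15.9 CPM. That call was lost without mixed barcodes and after the subtraction of free RNA, with ratios of 2.14 and 2.18 whose intervals included 1. In Car4 capillary cells the median of the G1/S list was -1.70, with 6 of 12 called lower. Those values include mixed barcodes, 3 of 89 and 12 of 350 Car4 capillary cells, and the summed carcinoma markers stood at 31.4 and 762 CPM there.

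Interferon gamma response genes were higher on balance in Cherry_positive members, within the range that the rule left. Outside the rule, 11 of 14 measured genes had a ratio over 1, 5 were called higher and none lower, and the median log2 ratio was 0.53, against -0.02 over all measured genes. The share called, 5 of 14, stands beside 1.42% of all measured genes. Tgtp2, the immunity-related GTPase whose promoter is shown above (chr11:49057194-49064206, minus strand), had 148 CPM (109 to 197) and 61.1 CPM (51.5 to 72.1), a ratio of 2.42 (1.70 to 3.39). It was seen in 25 and 105 members, in 27.03% and 10.5% after thinning, in 8.14% and 9.27% of Car4 capillary cells, and in 12.6% and 2.20% of mesenchymal cells. The ratio of Tgtp2 was 2.41 after subtraction of free RNA. The other 4 called were Tgtp1 (47.3 and 20.2 CPM), Gbp5 (31.5 and 12.1 CPM), the signalling inhibitor gene Socs1 (41.0 and 19.8 CPM) and Ubd, which came mostly from the cell with Glycam1. Socs1 lost its call without mixed barcodes (ratio of 1.89) and after the subtraction (1.81), while the others kept theirs under both. Both checks kept the cell with Glycam1, which held 30 of the 32 Cherry_positive Ubd UMIs. Without that cell Ubd had 6.40 CPM in Cherry_positive, against 3.01 CPM in Cherry_negative members.

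Not all interferon genes followed. The transcription factor gene Irf1 had 289.9 and 342 CPM, a ratio below 1. Of the 18 measured type I genes 12 were higher, none was called and the median log2 ratio was 0.06. The class I list had 12 higher, 7 lower, none called and a median of 0.05, with H2-K1 at 2581 and 2565 CPM. All 6 measured class II genes had a ratio over 1 and 1 was called, H2-DMa at 50.4 and 24.97 CPM. The median log2 ratio of class II was 0.43, and 0.86 with 2 called without mixed barcodes. Cd74 had 1276 and 864 CPM, a ratio of 1.48 (1.32 to 1.64), which was 2.29 without mixed barcodes and 1.15 without the top cell of each library. The share of thinned members with a Cd74 UMI was 33.8% in both libraries. In Car4 capillary cells the medians were 0.59 for the interferon gamma list and 0.46 for the type I list, and -2.79 for class II. These Car4 medians include mixed barcodes, 3 of 89 cells in Cherry_positive and 12 of 350 in Cherry_negative.

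Inflammatory and angiogenic genes gave scattered calls. Of 13 measured cytokine and acute phase genes, 8 had a ratio over 1, 4 were called higher and 1 lower, with a median log2 ratio of 0.17. The chemokine gene Ccl2 had 37.8 and 15.5 CPM, and 1979 and 216 CPM in mesenchymal cells, and its ratio of 2.44 became at most 0.83 after subtraction of free RNA. Lcn2, an iron-binding acute phase gene, was lower at 6.30 and 129 CPM, and stood at 1735 and 3230 CPM in epithelial cells. Of the activated endothelium list, 11 of 17 had a ratio over 1 and 2 were called. Angpt2, the ligand that competes at Tie2, had 50.4 and 20.7 CPM, a ratio of 2.44 (1.29 to 4.37), and 2.51 after the subtraction.

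Most other lists had no call. Lipid handling had 4 genes higher and 6 lower, none called, with the fatty acid receptor gene Cd36 at 1049 and 1123 CPM. Among 16 anticoagulation and vascular tone genes none was called, and the angiotensin-converting enzyme gene Ace had 744 and 858 CPM and the thrombomodulin gene Thbd 466 and 515 CPM. Caveolae (10 genes), Notch (12), leukocyte adhesion (10), basement membrane (13), glycolysis (13) and the unfolded protein response (14) had no call either. The p53 targets had 7 higher and 8 lower of 15, none called, with the cell cycle inhibitor gene Cdkn1a at 2184 and 2559 CPM and the cell death gene Bax at 1144 and 1070.4 CPM. Immediate early genes had 3 higher and 14 lower, none called, with Junb at 1831 and 2013 CPM.

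**Figure D5:**
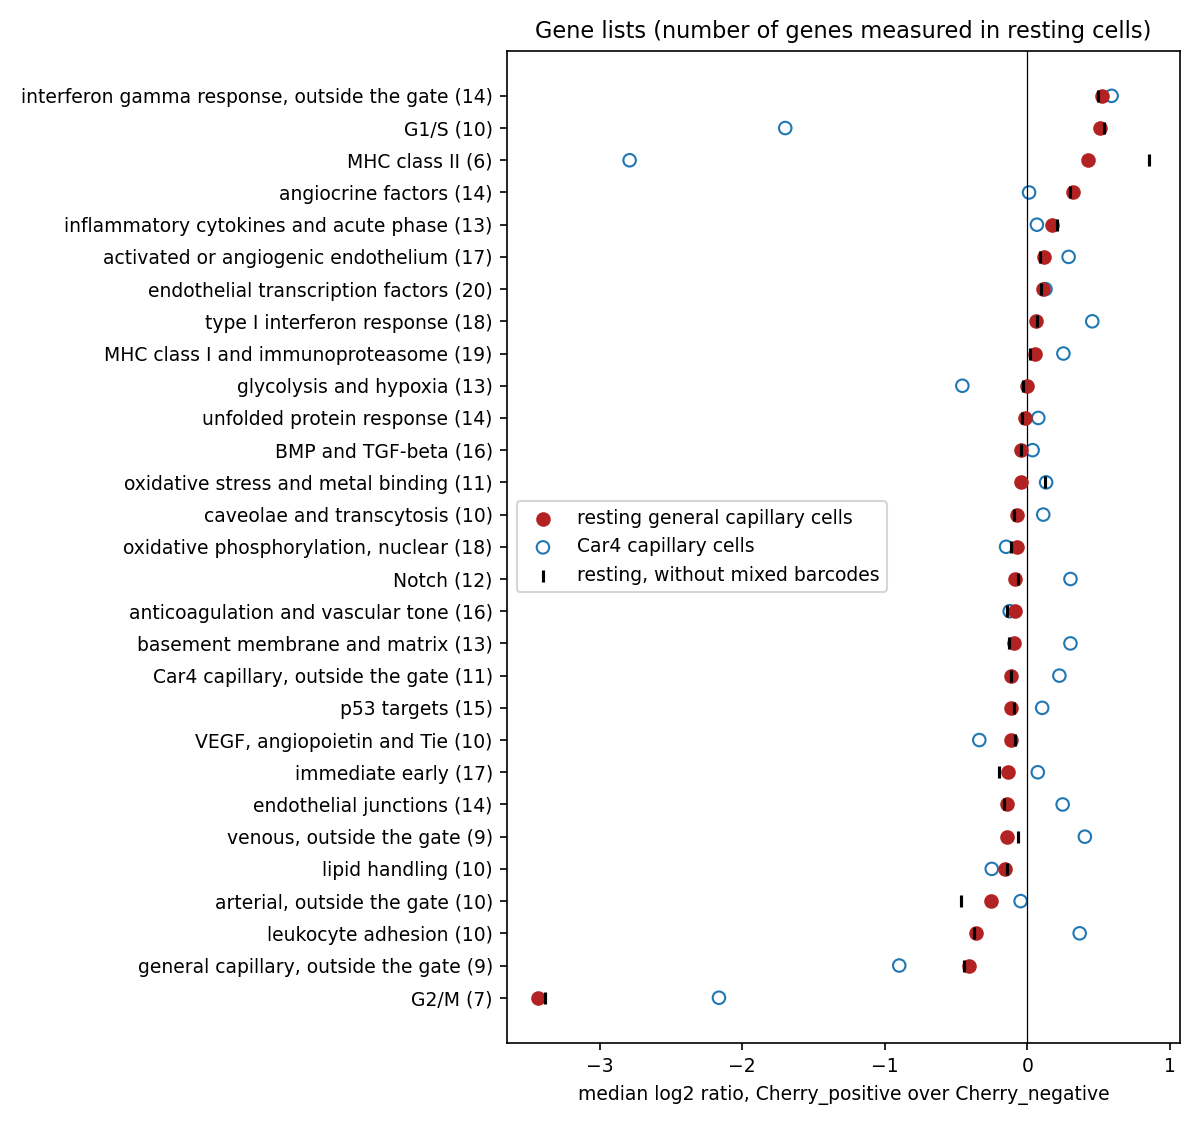
Median log2 ratio of Cherry_positive over Cherry_negative for each gene list, in resting general capillary cells and in Car4 capillary cells, with 0 as no difference. In the resting cells the interferon gamma list stood at 0.53 and the general capillary list at -0.41, and most lists lay close to the median of all measured genes.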

How the data were processed

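Single cells of mouse lung, sorted as CD45-, were captured with 10x 3′ chemistry in 2 libraries, 1 per group, per the labels. The deposited values are UMI counts per gene and cell barcode for 27998 gene rows, made by the authors with Cell Ranger 2.1.1 on mm10, per the submitters' processing notes, which also list Seurat 4.0.2 and R 4.0.3. The counts are whole numbers and were not normalized. No source used here states the aligner settings or any step against doublets.

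Members were gated on raw counts by the rule in the text, with no doublet caller. UMIs were summed over the members of a library and divided by all their UMIs (CPM). Sums carry exact Poisson and shares exact Clopper-Pearson 95% intervals, and ratios the matching binomial interval, for counting error only. A gene at 0 was set against a floor of 3 counts per library. No p-value was computed. Genes were measured with at least 30 UMIs and called at 2-fold or more with an interval off 1. List medians are of log2 ratios with 0.5 added to each count.

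Named in the Cherry comparison were the 12 called genes each way, of at least 20 CPM, whose interval bound nearest 1 lay farthest from 1, leaving aside genes of the rule, those of mitochondria, ribosomes, haemoglobin and antibodies, and any gene at 10 times the level or more in stromal, epithelial or immune cells. For each class comparison the same rule took up to 8 each way. Also named were the genes of the rule, 2 to 4 genes of a list, the 10 most abundant genes and the 10 most variable ones. The 10 most abundant were taken outside the genes of the rule, mitochondria, ribosomes and haemoglobin. The members and the gene lists were chosen with earlier results of these data known. Mixed barcodes held over 2% of their UMIs in type 2, type 1 or red cell markers, or over 0.5% in stromal or leukocyte markers, a step chosen after seeing the data, as was leaving out the member with Glycam1. Of 544 gene IDs sought, 544 were found in the GENCODE annotation. The 56 symbols on several IDs are kept apart by ID.

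A few items are not reported here. The scripts ran on pandas 2.3.3, scipy 1.17.1 and numpy 2.4.6 under Python 3.11.15. Alternatives changed the cell filters, the rule's limits, the scaling, the depth, the UMI minimum, free RNA and single cells.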

Additional observations from a re-analysis of the deposited data

Results flagged for a closer look

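In 5 of the named genes the ratio of summed levels, Cherry_positive over Cherry_negative, lay above 1 in the members and below 1 in the Car4 capillary cells. Their ratios were 117 for Spp1, 11.95 for Tagln, 9.19 for Lgals1, 7.81 for Tpm2 and 3.44 for S100a6 in the members. In Car4 capillary cells they were 0.0589, 0.413, 0.113, 0.325 and 0.154. The difference between the 2 cell types was not tested. Few cells carried these values. In Cherry_negative Car4 capillary cells, 3 cells held 2939 of 3515 UMIs of Lgals1, 1939 of 2483 of S100a6, 200 of 207 of Spp1, 53 of 59 of Tagln and 49 of 50 of Tpm2. In Cherry_positive members, 1 cell held 70 of 162 UMIs of Lgals1, 50 of 87 of S100a6, 30 of 32 of Spp1, 42 of 49 of Tagln and 9 of 16 of Tpm2. Shares of thinned cells with a UMI, computed for Lgals1 and S100a6 only, were higher in Cherry_positive in both cell types. They were 39.2% and 8.30% of members and 38.4% and 9.65% of Car4 capillary cells for Lgals1. For S100a6 they were 20.3% and 10.1%, and 33.7% and 23.2%.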

How the results depend on the processing

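Under 14 alternatives 725 values were recomputed. Of 388 list medians 297 stayed within the counting interval of their list and 90 moved past it. A change of sign was counted only for the interferon gamma, inflammatory and G2/M lists, where 1 occurred. Medians of other lists that changed sign were sorted by the interval alone. The oxidative stress and metal binding list, for example, went from -0.05 to 0.12 without mixed barcodes. Ratios were recomputed only for the 12 genes named each way by their interval in the Cherry comparison. Of these 293 ratios 242 stayed within their interval, 47 moved past it and 4 crossed 1. That list leaves aside genes at 10 times the level or more in other lineages. Other genes of the text were thus not counted. Among them were Mgp and Ccl2, whose ratios crossed 1 once free RNA was subtracted, and Tgtp2, whose ratio did not. A ratio whose floor lay on the far side of 1 was given no value. No paired analysis was possible because each group has 1 library.

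The number of genes called higher was 166 with at least 10 UMIs, 53 with cells thinned to 2000 UMIs, 35 without the top cell per library (with the UMI minimum applied afterwards) and 21 without members that held 2 or more UMIs of other cell types' markers. Genes called lower were 87 with thinned cells, 277 without the top cell per library and 16 without members with such markers. Leaving out 1 of 79 cells removes more than leaving out 1 of 740, by construction. The marker step left 36 and 31 members, or 2.03% and 1.10% of kept cells, and gave Gm12840 and Gm26870 ratios of 1.05 each. A limit of 0.1% on the interferon genes left 2.77% and 19.6%, and no limit gave 5.59% in Cherry_positive. Without mixed barcodes Myl9 was at 0.450 and Tpm2 at 0.600.

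The inflammatory list had a median log2 ratio of -0.087 with 5% free RNA subtracted, 0.030 with thinned cells, 0.34 without the interferon limit and 2.92, over 2 genes, without members with other markers. The interferon gamma list had 0.34 with thinned cells, 0.29 under the limit of 0.1%, 1.27 with no limit and 0.30 without members with other markers. Beyond what the construction shows, the causes were not tested. Depth limits the Cherry_positive side, where 79 cells give 317361 UMIs.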

Other observations

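Most genes varied between members of 1 library about as counting alone would give. Among 2556 genes with a mean of at least 0.2 UMIs per Cherry_negative member, the variance divided by the variance of Poisson counting had a median of 1.12, and 316 genes were over 2. The 10 highest were led by type 2 epithelial genes, Sftpc at 2260.5, Lyz1 at 337, Sftpa1 at 332, Lyz2 at 296, Sftpb at 97.4, Cxcl15 at 95.02 and Sftpd at 57.5, with Malat1 at 60.1, the type 1 gene Ager at 49.5 and the stromal gene Mfap4 at 44.7 among them. Without mixed barcodes the median was 1.08 over 2465 genes.

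What then varied most were Malat1 at 51.5 and Mgp at 37.1, with 39.6% of the Mgp UMIs in 1 cell. The fatty acid binding protein gene Fabp4 stood at 26.0 and was found in 1.55% of cells, and Lrg1 at 22.7, found in 6.497%. Plac8 was at 19.7, found in 7.34% of cells, and the chromatin protein gene Hmgb2, which is high in dividing cells, at 18.4, found in 22.6%. Igfbp7 was at 16.9, Actb at 15.1, Arl6ip1 at 13.4 and Tmsb10 at 12.6. Fabp4 and Lrg1 were thus held by small groups of members.

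The response element described for the activated cells also occurred in the promoters of 9 of 78 genes (11.5%) called higher in Cherry_positive members and of 4 of 114 (3.51%) called lower, beside 3.97% of measured genes. Of the 107 genes called higher, 38 stayed called without top cells and without mixed barcodes. Another lineage had 10 times the level in 16 of the 107. The promoter count was not repeated without such genes.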
